A study of Solanum lycopersicum with 2 samples.

Results

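Jasmonate synthesis was followed through 5 enzyme genes among the 34716 genes of a single-cell atlas of the tomato root. The genes were chosen by identifier and not by a measured value, although earlier results of these data were known. All 5 passed the filter on low counts. They are Solyc03g122340 (LoxD, a lipoxygenase), Solyc04g079730 and Solyc11g069800 (both allene oxide synthases, called AOS1 and AOS2 here), Solyc02g085730 (AOC, allene oxide cyclase) and Solyc07g007870 (OPR3, an oxo-phytodienoate reductase). The study digested the terminal 3 cm of primary roots of cultivar M82, 7 days after sowing, with cell wall enzymes, and loaded the resulting protoplasts on a droplet platform. Both libraries, each from pooled roots, belong to the group M82 root and carry the replicate numbers 1 and 2. No treatment or genotype was compared, so each comparison sets cells of a cluster against cells of the other clusters.

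Jasmonates are plant hormones made from a polyunsaturated fatty acid of plastid membranes. A lipoxygenase adds oxygen to the fatty acid, allene oxide synthase turns the product into an unstable epoxide, and allene oxide cyclase closes its ring to give oxo-phytodienoic acid. That precursor moves to the peroxisome, where OPR3 reduces it before its side chain is shortened to jasmonic acid, a hormone known for the wound response and for restraining root growth. LoxD and AOS1 are 2 of the 821 genes that the study listed as induced by protoplasting and left out of its own atlas. They were kept here, and the share of UMIs (unique molecular identifiers, tags that stand for 1 transcript molecule each) that came from the 819 other listed genes is given beside the results.

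The libraries differed in depth, with 187215851 UMIs over 12481 barcodes in replicate 1 and 81175339 over 10253 in replicate 2. Of these, 12403 and 10231 cells passed the filters, and 38 barcodes occurred in both libraries. The cells were divided into 30 clusters on the basis of other genes, and the 25 with 10 or more cells from both libraries were tested. Cluster 26 was exodermis-like, since 47 of 50 late exodermal genes of the study had their highest level there. Both endodermis markers had their highest level in cluster 20, which is too few to name it, and the other clusters keep their numbers. The listed protoplasting-induced genes took 4.57% of UMIs in replicate 1 and 5.53% in replicate 2.

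All 5 genes were detected in both libraries, at levels that differed between them. Levels are in CPM, UMIs of the gene scaled to a fixed total of nuclear UMIs, and intervals are exact 95% Poisson intervals that cover counting error only. LoxD had 38.2 CPM (37.4 to 39.1) in replicate 1 and 101 CPM (99.1 to 103) in replicate 2. AOS1 had 14.9 CPM (14.4 to 15.5) and 37.1 CPM (35.8 to 38.5) in replicates 1 and 2, and AOS2 had 2.90 CPM (2.66 to 3.16) and 6.70 CPM (6.15 to 7.29). Replicate 2 was the higher library for all 5 genes, with intervals that did not overlap. AOC had 44.9 CPM (43.9 to 45.8) and 207 CPM (204 to 209.8), and OPR3 had 78.1 CPM (76.9 to 79.4) and 112 CPM (109 to 114).

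The difference between libraries was seen in most clusters and not only in the summed libraries. Of the 25 clusters, replicate 2 had the higher CPM in 25 for AOC, 23 for LoxD, 21 for AOS1, 20 for AOS2 and 19 for OPR3. The ratio of replicate 2 to replicate 1 was 4.60 for AOC, and 0.912% of the 17437 genes with at least 100 UMIs over both libraries had a larger one. For LoxD the ratio was 2.65 and 4.61% of genes had a larger one, and for OPR3 it was 1.43 and 28.7% did. The median gene differed by 0.24 on the log2 scale. With 1 library on each side, this difference has no replicate check. The fits below take the library as a block for that reason.

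Cluster 21 held the highest mean level of LoxD, AOS1, AOC and OPR3 among the 25 clusters. It contained 387 cells of replicate 1 and 213 of replicate 2, which is 3.12% and 2.08% of each library. LoxD had 366 and 795 CPM there in replicates 1 and 2, against means of 55.0 and 114 CPM over the other clusters. AOS1 had 137 and 255 CPM, against 21.6 and 38.0 CPM. Both genes were higher in cluster 21 in each library. AOC, which closes the ring of the precursor, had 344 and 1343 CPM in cluster 21, against 55.0 and 186 CPM elsewhere. OPR3, the peroxisomal reductase, had 461 and 769 CPM, against 91.0 and 102 CPM. AOS2 had 1.91 and 7.87 CPM, against 5.41 and 8.71 CPM, so this synthase did not follow the other enzymes.

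The contrast of cluster 21 with the mean of the other clusters called 4 of the 5 genes higher, where 23.3% of the 16799 genes tested were called higher. The log2 fold changes were 3.19 ± 0.24 (SE) for LoxD (adjusted p = 4.7e-13), 3.46 ± 0.27 for AOS1 (5.4e-13), 3.23 ± 0.21 for AOC (6.9e-15) and 2.84 ± 0.18 for OPR3 (3.4e-15), all by edgeR's quasi-likelihood test with Benjamini-Hochberg adjustment. AOS2 did not pass, at -0.14 ± 0.43 (adjusted p = 0.88). The fit averages log levels over clusters, so its folds differ from ratios of the mean CPM above. The p-values rest on how far the 2 libraries disagreed within clusters after their difference in level was taken out, pooled over all tested clusters. They do not measure the spread of cluster 21 alone. The cells had been clustered on other genes of the same libraries. All 4 genes were called under 12 alternatives of clustering, filtering and testing, but at resolution 0.5 the best match shared a Jaccard overlap of only 0.334 with cluster 21 and overlapped cluster 11 more (0.636), so it is a different set of cells. In the other clusterings the overlap was 0.770 to 0.982.

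Cluster 21 held a large share of the UMIs of each of these 4 genes. The cluster held 29.5% of all LoxD UMIs in replicate 1 and 22.1% in replicate 2. For AOS1 it held 28.3% and 19.3%, for AOC 23.6% and 18.3%, and for OPR3 18.2% and 19.4%. These shares were several times the cluster's share of UMIs of all genes, 3.08% and 2.82%. Cells of the cluster were deeper than their libraries, with medians of 13158 and 9254 UMIs, against 8068 and 3801 UMIs over all cells. The other protoplasting-induced genes took 4.90% and 6.89% of its UMIs, and 7 of its 10 leading genes were on that list. Their part in the enzyme levels was not tested.

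**Figure D1:**
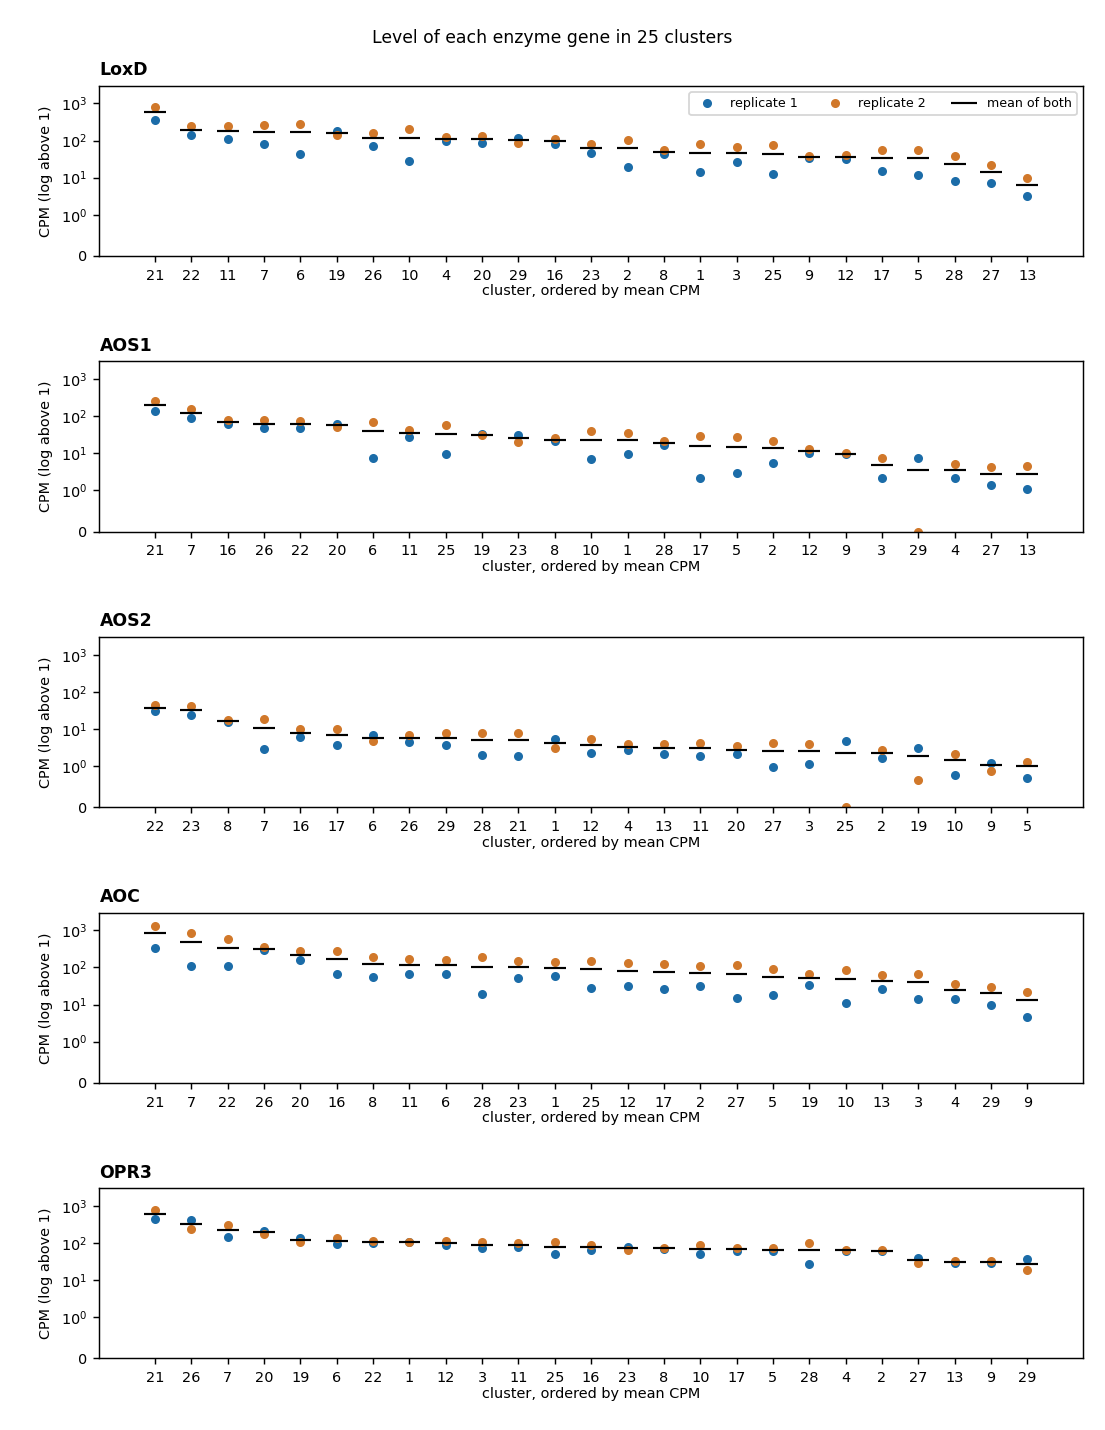
Level of each enzyme gene in the 25 tested clusters, in CPM on an axis that is logarithmic above 1, with 1 point for each replicate and a bar at their mean, and clusters ordered by mean within each panel. Cluster 21 stands at the left for LoxD, AOS1, AOC and OPR3, while for AOS2 clusters 22 and 23 do.

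Cluster 7 was the only 1 of the 25 clusters in which all 5 enzymes were called higher, where 27.2% of all genes were. It held 391 and 708 cells. AOC had 110 and 850 CPM in cluster 7, against 64.7 and 206 CPM over the other clusters, a log2 fold change of 2.07 ± 0.24 (edgeR adjusted p = 1e-08). AOS1 had 89.8 and 158 CPM, against 23.6 and 42.0 CPM, a log2 fold change of 2.73 ± 0.28 (edgeR adjusted p = 9.3e-10). The log2 fold changes were 1.27 ± 0.21 for OPR3, 1.21 ± 0.30 for LoxD and 0.98 ± 0.31 for AOS2. Both libraries were higher for AOS1 and AOC, but AOS2 had 2.80 CPM in replicate 1 of cluster 7, below the 5.37 CPM of the other clusters, and 18.6 CPM in replicate 2, above their 8.27 CPM. The protoplasting-induced genes took 2.02% and 3.05% of UMIs in cluster 7, below the share in both whole libraries.

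Some of the calls in cluster 7 depended on where its border was drawn. When 5 genes of the jasmonate list, which includes the enzymes, entered the clustering features, the cluster that matched it best had a Jaccard overlap of 0.573 with it, and without centring of genes within each library the overlap was 0.557. The log2 fold changes were then 0.09 and 0.43 for AOC and -0.077 and 0.071 for OPR3, and none of these passed. The values without a library also differed, with log2(CPM + 1) differences of 2.67 for AOC without replicate 1 and 1.55 without replicate 2. For OPR3 they were 1.80 and 0.95.

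In the exodermis-like cluster 26, the later steps were high and LoxD was not called. AOC had 293 and 349 CPM in its 95 and 313 cells, against 57.1 and 227 CPM over the other clusters. OPR3 had 422 and 242 CPM, against 92.7 and 124 CPM. Both genes were higher than the mean of the rest in each library. The 130 and 359 UMIs of AOC came from 12 cells (12.6%) and 70 cells (22.4%), below the 27.0% and 33.2% of cells with AOC in the whole libraries. OPR3 was found in 25 cells (26.3%) and 62 cells (19.8%), also below its 44.2% and 29.9%, in a cluster of shallow cells. These lower shares were not seen at equal depth. With cells thinned to 2000 UMIs, AOC was found in 20.0% of 50 cells and 24.2% of 128 cells, against 7.70% and 19.2% in the whole libraries. OPR3 was then found in 16.0% and 18.75%, against 14.6% and 14.98%. The log2 fold changes were 2.08 ± 0.27 for AOC (edgeR adjusted p = 1.5e-07), 1.80 ± 0.22 for OPR3 (2.5e-08) and 1.62 ± 0.43 for AOS1 (0.0047), and 14.4% of all genes were called higher there. LoxD had 70.0 and 163 CPM, against 67.3 and 140.0 CPM, and its log2 fold change of 0.65 ± 0.37 did not pass (edgeR adjusted p = 0.23). LoxD did pass in 4 alternatives of the clustering, with values from 0.82 to 1.77. At resolution 0.5 the best match shared a Jaccard overlap of only 0.402 with cluster 26 and overlapped cluster 19 more (0.596), so it is a different set of cells. The cluster was shallow, with medians of 2210 and 1514 UMIs per cell. For AOC the log2(CPM + 1) difference was 1.34 without replicate 1 and 3.02 without replicate 2, and for OPR3 it was 1.43 and 2.52.

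Some but not all of the enzymes were called higher in clusters 22, 20, 19 and 16. Cluster 22 was higher for 4 of 5 genes (18.1% of all genes), with log2 fold changes of 2.82 ± 0.36 for AOS2, 1.49 ± 0.27 for AOC, 1.41 ± 0.42 for AOS1 and 1.29 ± 0.34 for LoxD. Cluster 20, where both endodermis markers had their highest level, was higher for 3 (12.7% of all genes), with 1.76 ± 0.33 for AOS1, 1.53 ± 0.26 for AOC and 1.13 ± 0.22 for OPR3. Cluster 16 was higher for AOS1 and AOC (16.1% of all genes). Cluster 19 was called higher for LoxD, AOS1 and OPR3 (20.8% of all genes), not for AOC. LoxD had 183 and 139 CPM in cluster 19, against 62.6 and 141 CPM over the other clusters, AOS1 had 32.1 and 31.0 CPM, against 26.01 and 47.3 CPM, and OPR3 had 138 and 105 CPM, against 104 and 129 CPM. All 3 genes were above that mean CPM in replicate 1 and below it in replicate 2. The fit averages log levels, so a mean CPM raised by a few high clusters is not the level it tests against. These values therefore do not show that the libraries disagreed on the tested scale. Over all 25 contrasts, 31 of 125 tests of the enzymes were called higher and 23 lower, against 19.3% and 12.5% of all tests. The share of enzyme tests called was thus not far above that of genes in general, and an F test over all clusters called 5 of 5 enzymes where it called 94.7% of genes.

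**Figure D2:**
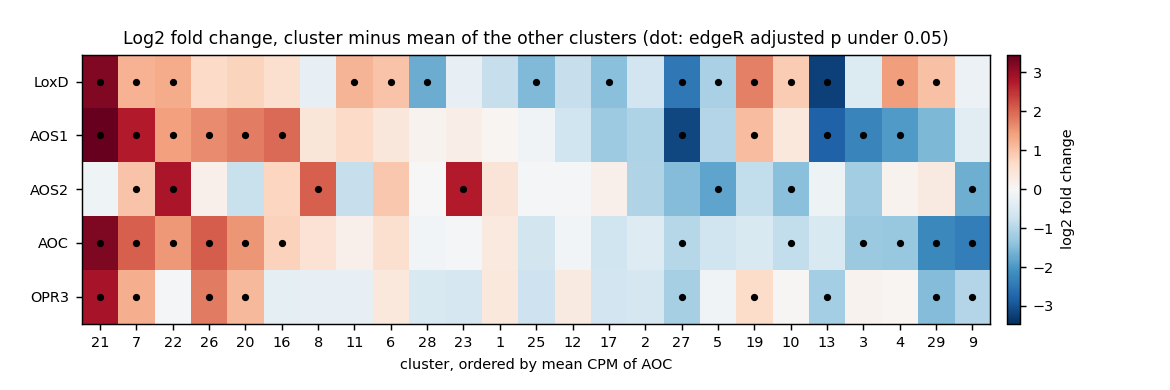
Log2 fold change of each enzyme gene in each tested cluster against the mean of the other clusters, by colour, with a dot where the edgeR adjusted p was under 0.05 and clusters ordered by mean CPM of AOC. Cluster 7 carries dots in all 5 rows, cluster 21 in 4, and clusters 4, 10 and 29 show LoxD higher beside lower values of AOC.

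In cluster 4 LoxD was called higher and AOS1 and AOC lower, while AOS2 and OPR3 were not called. Its 608 and 613 cells had 97.9 and 122 CPM of LoxD, against means of 66.1 and 142 CPM over the other clusters, but 2.14 and 5.02 CPM of AOS1, against 27.3 and 48.4 CPM. AOC had 13.8 and 35.8 CPM, against 68.7 and 240 CPM, and OPR3 had 61.4 and 67.2 CPM, against 108 and 131 CPM. LoxD exceeded the mean CPM of the rest in replicate 1 alone, while AOS1 and AOC fell short of it in both. The fit called LoxD higher, at 1.45 ± 0.30 (edgeR adjusted p = 9.3e-05, 31.7% of genes higher), and AOS1 and AOC lower, at -1.96 ± 0.53 (0.0019) and -1.31 ± 0.35 (0.0019), with 20.6% of genes lower. OPR3 was at 0.077 ± 0.24 (edgeR adjusted p = 0.88), and UMIs of it were found in 34.4% and 27.9% of the cells. On the scale of log2(CPM + 1), the LoxD difference was above 0 in each library, at 0.38 without replicate 1 and 1.35 without replicate 2. The other protoplasting-induced genes took 20.2% and 21.7% of UMIs in this cluster, and their part in the LoxD level was not tested.

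Cluster 29, with 141 and 58 cells, shared with clusters 4 and 10 a higher call of LoxD and a lower call of AOC. Unlike in cluster 4, OPR3 was lower here and AOS1 was not called. In cluster 10 the log2 fold changes were 0.89 ± 0.32 for LoxD and -0.86 ± 0.33 for AOC, and neither AOS1 nor OPR3 was called. LoxD had 115 and 86.7 CPM in cluster 29, against 65.4 and 143 CPM over the other clusters. AOC had 9.72 and 30.2 CPM, against 68.9 and 240 CPM, and OPR3 had 36.4 and 18.9 CPM, against 109 and 133 CPM. AOC and OPR3 were lower in both libraries, and LoxD was higher in replicate 1 only. The fit gave 1.03 ± 0.38 for LoxD (edgeR adjusted p = 0.037, 16.5% of genes higher), -2.22 ± 0.51 for AOC and -1.49 ± 0.36 for OPR3 (11.4% of genes lower), and -1.56 ± 0.88 for AOS1 (edgeR adjusted p = 0.21). The LoxD difference on log2(CPM + 1) turned to -0.12 without replicate 1 and was 1.60 without replicate 2. The other protoplasting-induced genes took 9.40% and 11.3% of UMIs there.

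LoxD and AOS1 had their lowest mean levels in clusters 13 and 27, AOC had its lowest in cluster 9, OPR3 in cluster 29 and AOS2 in cluster 5. Cluster 13, with 625 and 198 cells, had 3.22 and 9.67 CPM of LoxD, against 70.1 and 146 CPM over the other clusters, and 1.06 and 4.55 CPM of AOS1, against 27.3 and 48.4 CPM. Its log2 fold changes were -3.23 ± 0.48 for LoxD, -2.80 ± 0.54 for AOS1 and -1.18 ± 0.27 for OPR3, where 21.7% of genes were called lower. These cells were deep, with medians of 26206 and 8264.5 UMIs. Cluster 27 was lower for the 4 enzymes other than AOS2 (14.3% of genes), and it had only 19 cells of replicate 2. Cluster 9, with 201 and 702 cells, was lower for AOC (-2.39 ± 0.40), AOS2 (-1.67 ± 0.57) and OPR3 (-1.02 ± 0.28), where 21.7% of genes were lower.

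Apart from AOS2 in clusters 8 and 23, the remaining calls fell in 8 clusters and concerned LoxD more than the later enzymes. LoxD was higher in cluster 11 (1.17 ± 0.33, where 22.0% of genes were higher), cluster 6 (0.98 ± 0.33, 12.7%) and cluster 10 (0.89 ± 0.32, 27.6%). It was lower in cluster 28 (-1.71 ± 0.46, where 11.8% of genes were lower), cluster 25 (-1.53 ± 0.53, 8.83%), cluster 17 (-1.45 ± 0.47, 13.7%) and cluster 5 (-1.11 ± 0.41, 13.6%). In clusters 6 and 10 LoxD had 44.7 and 28.0 CPM in replicate 1, below the mean CPM of the other clusters. In replicate 2 it had 287 and 205 CPM, above their mean CPM. The fit averages log levels and does not test against this mean. The rank of LoxD among the 25 clusters does not depend on that mean. Cluster 6 ranked 12 in replicate 1 and 2 in replicate 2, and cluster 10 ranked 16 and 6. In cluster 10 LoxD was thus in the lower part of the order in replicate 1, although it was called higher. AOC was lower in cluster 3 (-1.27 ± 0.36) and cluster 10 (-0.86 ± 0.33), AOS1 in cluster 3 (-2.27 ± 0.62), and AOS2 in cluster 5 (-1.81 ± 0.50) and cluster 10 (-1.45 ± 0.51), where 11.7% of genes were lower in cluster 3 and 19.1% in cluster 10. In cluster 3 the other protoplasting-induced genes took 16.3% and 15.4% of UMIs, and LoxD, at 27.0 and 65.4 CPM, was not called there.

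Ordered by mean level, neighbouring clusters seldom separated beyond the spread of the libraries. LoxD ran from 581 CPM in cluster 21 to 6.45 CPM in cluster 13, a 90.1-fold range. AOS1 spanned 69.9-fold, AOC 64.9-fold, AOS2 37.4-fold and OPR3 22.2-fold. Of the 24 pairs of neighbours in each order, the ranges of the libraries overlapped in 23 for LoxD, AOC and AOS2 and in 21 for AOS1 and OPR3. The libraries differ in level, which widens these ranges. Compared within each library, the higher of the neighbours was higher in both for 9 pairs of AOC, 7 of AOS1, 6 each of LoxD and OPR3 and 2 of AOS2. For LoxD and OPR3, cluster 21 was separated from the next cluster (22 and 26). For AOS1 and AOC its range overlapped that of cluster 7, although cluster 21 was the higher cluster in both libraries.

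AOS1 supplied most UMIs of the allene oxide synthases in both libraries, and its share varied between clusters. AOS1 supplied 83.7% of the UMIs of the pair in replicate 1 (2795 of AOS1 and 543 of AOS2) and 84.7% in replicate 2 (3011 and 544). In cluster 21 the AOS1 share was 98.6% (exact 95% binomial interval 97.6 to 99.3) and 97.0% (95.3 to 98.2). In the clusters with the highest AOS2 levels the AOS1 share was lower, at 61.5% (44.6 to 76.6) and 62.7% (54.2 to 70.6) in cluster 22, 57.8% (42.2 to 72.3) and 32.8% (24.7 to 41.8) in cluster 23, and 57.1% (49.9 to 64.2) and 59.0% (49.5 to 68.0) in cluster 8. AOS1 was thus still the larger part in clusters 22 and 8, and AOS2 was the larger in replicate 2 of cluster 23, where the interval lay below an even split. Low AOS1 shares also occurred where AOS2 was not called higher, at 32.9% (22.1 to 45.1) and 53.3% (34.3 to 71.7) in cluster 13 and 44.4% (25.5 to 64.7) and 55.8% (39.9 to 70.9) in cluster 4. AOS2 had 30.4 and 44.8 CPM in cluster 22, 23.5 and 42.3 CPM in cluster 23, and 15.7 and 17.7 CPM in cluster 8. The fit called AOS2 higher in all 3, at 2.82 ± 0.36, 2.73 ± 0.32 and 2.07 ± 0.30, where 18.1%, 19.7% and 16.4% of genes were called higher.

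Cells with UMIs of both synthases were few. In replicate 1, 72 cells held both, which is 15.3% of the 471 AOS2 cells, against 9.22% of all cells with AOS1. In replicate 2, 107 cells held both, 25.6% of the 418 AOS2 cells, against 11.1% of all cells. The log2 odds ratio within deciles of depth was 0.23 and 1.03. The pair code for related proteins, and how reads that match both genes were counted was not tested.

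**Figure D3:**
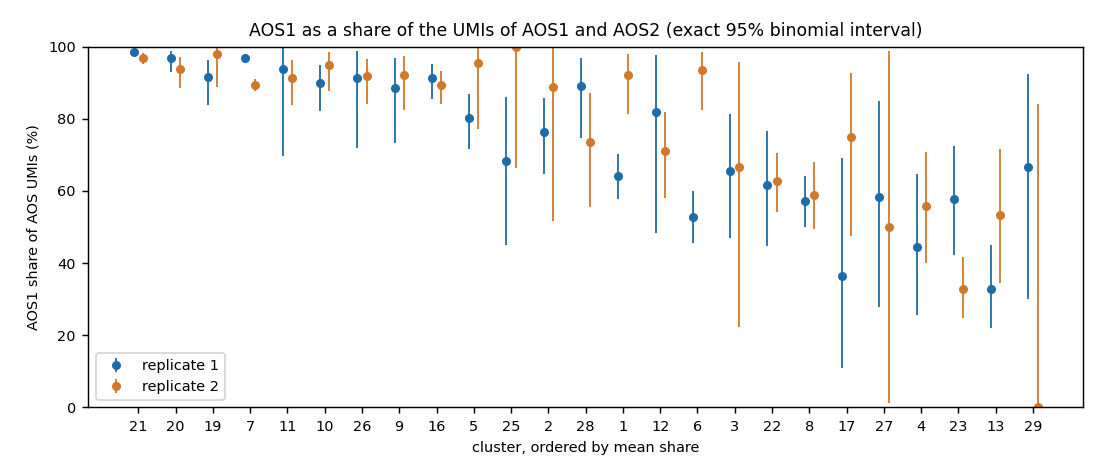
Share of the UMIs of both allene oxide synthase genes that came from AOS1, in percent, for each tested cluster and replicate, with exact 95% binomial intervals (counting error only). The share was 98.6% and 97.0% in cluster 21, and wide intervals mark clusters with few UMIs of either gene.

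For the count of steps in single cells, AOS1 and AOS2 were pooled, which gives 4 steps. A UMI of LoxD was found in 19.2% of cells of replicate 1 and 22.0% of replicate 2, of AOS in 12.4% and 14.1%, of AOC in 27.0% and 33.2%, and of OPR3 in 44.2% and 29.9%. Since a deeper cell shows more genes, each cell was also thinned to 2000 UMIs, which left 10274 and 6990 cells and dropped the shallower ones. The shares were then 6.90% and 13.3% for LoxD, 3.29% and 8.01% for AOS, 7.70% and 19.2% for AOC, and 14.6% and 14.98% for OPR3. At equal depth replicate 2 had the higher share for LoxD, AOS and AOC, while for OPR3 the higher unthinned share of replicate 1 was gone.

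Free RNA in the droplets can place a UMI in a cell that does not express the gene, and no root cell type is known to lack these enzymes. The cluster with the lowest share, among those of at least 50 thinned cells, is therefore given beside cluster 21. It is no measure of background, since depth differed between clusters, with medians in replicate 1 before thinning of 14534 UMIs in cluster 21, 26972.5 in cluster 13, 37847.5 in cluster 24, 7984 in cluster 3 and 5269.5 in cluster 29. In thinned cells of cluster 21, LoxD was found in 46.1% and 71.7%, against 0.833% and 1.16% in cluster 13. AOS was found in 22.4% and 42.9% of cluster 21, against 0.385% in cluster 3 of replicate 1 and 0.403% in cluster 18 of replicate 2. AOC was found in 35.3% and 57.6%, against 1.06% in cluster 29 and 4.12% in cluster 4, the lowest of replicates 1 and 2. OPR3 was found in 47.8% and 68.5%, against 3.04% in cluster 24 and 4.05% in cluster 13. Cluster 21 was picked for its high levels in these same cells, and the other cluster as the lowest for each step and library. A gap between them was therefore fixed in advance, and the shares only describe its size.

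Most cells held UMIs of 1 step or none, and cells with all 4 steps were concentrated in few clusters. No step was seen in 40.2% of cells in replicate 1 and 43.8% in replicate 2, and 1 step in 31.2% and 30.3%. All 4 steps were seen in 434 cells of replicate 1 (3.50%, 3.18 to 3.84) and 536 of replicate 2 (5.24%, 4.82 to 5.69). Those cells were deep, with medians of 23802.5 and 13284 UMIs, against 3112 and 2075 UMIs in cells without a step. After thinning, 35 cells (0.341%) and 111 cells (1.59%) held all 4 steps. The other protoplasting-induced genes took a median of 3.88% and 5.01% of UMIs in the 4-step cells before thinning, against 4.01% and 2.76% in cells without a step. After thinning the medians were 6.90% and 7.84% in the 4-step cells, against 3.83% and 2.75%. Their part in the joint detection was not tested.

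All 4 steps occurred together in 141 of the 387 cells of cluster 21 in replicate 1 (36.4%, 31.6 to 41.4) and in 120 of 213 in replicate 2 (56.3%, 49.4 to 63.1). Cluster 7 had 85 such cells (21.7%, 17.8 to 26.2) and 214 (30.2%, 26.9 to 33.8), and cluster 20 had 32 (14.8%) and 26 (6.75%). Clusters 21 and 7 thus held 32.5% and 19.6% of the 4-step cells of replicate 1, and 22.4% and 39.9% of those of replicate 2. In cluster 4, 2 cells and 4 cells held all 4 steps (0.329% and 0.653%), although LoxD was found in 37.5% and 40.1% of its cells. Of those LoxD cells, 6.14% and 7.32% had AOS, against 66.7% and 77.0% of the LoxD cells of cluster 21. Among all cells, with or without LoxD, AOS was found in 3.95% and 4.57% of cluster 4 and in 58.9% and 70.4% of cluster 21. Most of the gap between the LoxD cells was thus also present between all cells of the clusters. After thinning, cluster 21 held 22 and 35 of the 4-step cells, and cluster 7 held 7 and 52.

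**Figure D4:**
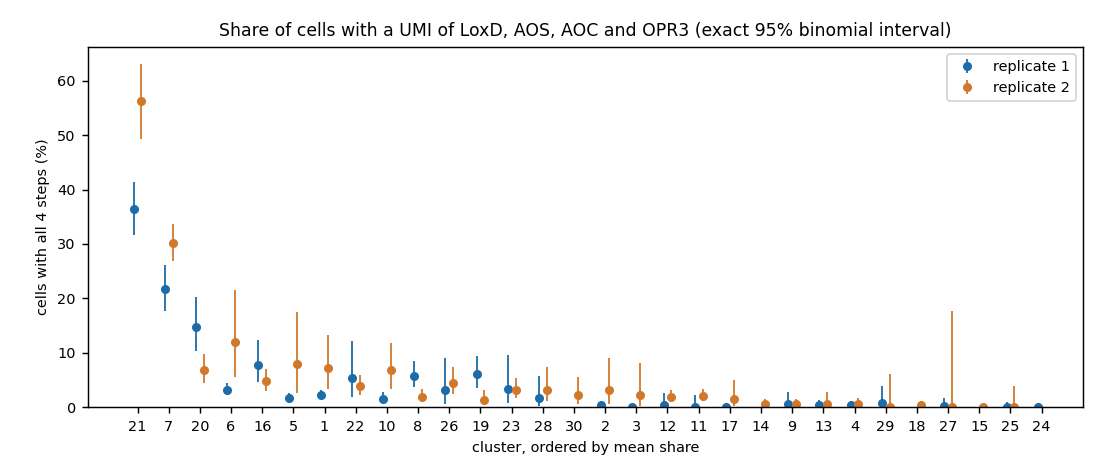
Share of cells with at least 1 UMI of all 4 steps (LoxD, either AOS gene, AOC and OPR3), in percent, for each cluster with at least 10 cells in a replicate, with exact 95% binomial intervals (counting error only). Cluster 21 lies at 36.4% and 56.3%, followed by cluster 7 at 21.7% and 30.2%.

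Successive enzymes were found in the same cells also when cells of like depth were compared, and LoxD with AOS most of all. AOS was found in 32.6% of LoxD cells in replicate 1 and 39.3% in replicate 2, against 12.4% and 14.1% of all cells. The odds ratio, taken within deciles of UMIs per cell, was 2.14 and 2.75 on the log2 scale, a mean of 2.45 ± 0.43 (SD, n = 2). AOC was found in 54.5% and 65.7% of AOS cells, against 27.0% and 33.2% of all cells, with a mean log2 odds ratio of 1.62 ± 0.38. OPR3 was found in 67.5% and 47.3% of AOC cells, against 44.2% and 29.9% of all cells, with a mean of 0.92 ± 0.13. Each of the 6 pairs of steps had a log2 odds ratio above 0 in both libraries.

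Steps that do not follow each other directly were also found together. The mean log2 odds ratio was 1.34 ± 0.41 for AOS with OPR3, 1.08 ± 0.30 for LoxD with OPR3 and 0.81 ± 0.19 for LoxD with AOC. Taken within clusters as well as within depth deciles, the values were 1.71 ± 0.45 for LoxD with AOS and from 0.46 to 0.83 for the other pairs, all above 0 in both libraries. Each value was smaller than without the clusters as strata. Cells are not replicates, so no p is given. LoxD with AOS, the genes of which LoxD and AOS1 are both on the protoplasting-induced list, was the pair with the largest value under each stratification and in both libraries.

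**Figure D5:**
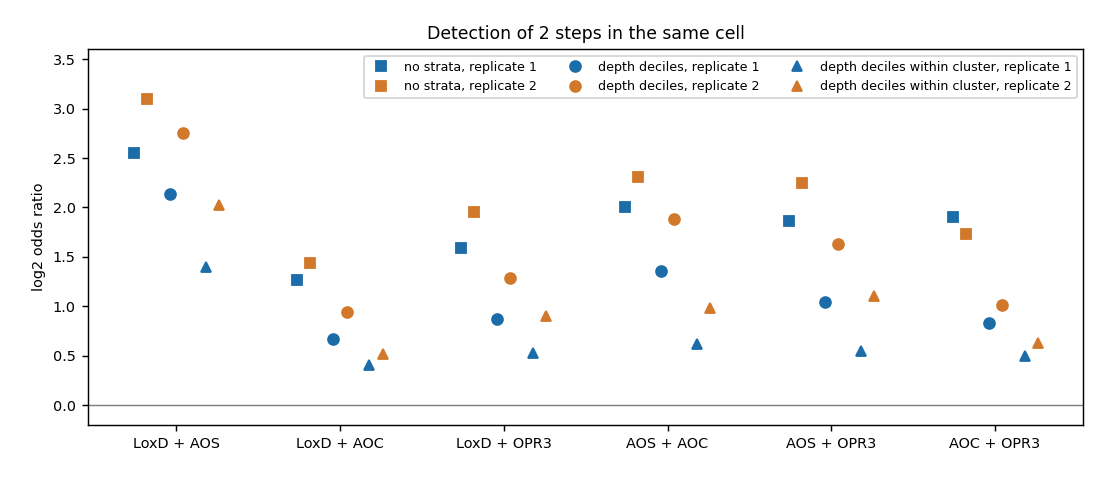
Log2 odds ratio of finding 2 steps in the same cell, for the 6 pairs of steps and each replicate, without strata, within deciles of UMIs per cell, and within such deciles inside each cluster. All points lie above 0, and LoxD with AOS is highest under each of the 3 treatments.

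Single steps were also found alone. Of cells with a UMI of OPR3, 41.7% in replicate 1 and 32.2% in replicate 2 had no other step. AOC was alone in 24.1% and 38.6% of its cells, LoxD in 23.3% and 26.6%, and AOS in 14.9% and 13.8%. These shares depend on depth. In cells thinned to 2000 UMIs OPR3 was alone in 73.2% and 45.2%, AOC in 62.3% and 52.2%, LoxD in 58.3% and 39.4%, and AOS in 49.1% and 24.3%. AOS had the lowest of the 4 shares in each library, with and without thinning.

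Across the 25 clusters, the levels of 4 of the enzymes were correlated, and AOS2 less so. The Pearson correlation of log2(CPM + 1), taken on the mean of the libraries, was 0.85 between AOS1 and AOC, 0.83 between AOC and OPR3 and 0.82 between AOS1 and OPR3. LoxD correlated with AOS1 at 0.71, with OPR3 at 0.70 and with AOC at 0.53, and AOS2 correlated with the other 4 at 0.19 to 0.50. In replicate 1 alone AOS1 correlated with OPR3 at 0.68 and with LoxD at 0.72, and in replicate 2 at 0.86 and 0.67. These values describe 25 clusters that share 2 libraries and their depth. With the share of other protoplasting-induced genes, LoxD correlated at 0.11 and 0.12 in replicates 1 and 2, and AOS1, AOC and OPR3 at -0.46 and -0.43, -0.38 and -0.41, and -0.09 and -0.13.

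The genes most like each enzyme over the clusters were taken from 16788 tested genes, and the files pair their identifiers with no names. For LoxD they were Solyc07g053740 (r = 0.94), Solyc01g080500 (0.93) and Solyc11g010500 (0.91), none of them on the protoplasting-induced list. For AOS1 they were Solyc05g009550 (0.90), Solyc02g064980 (0.90) and Solyc07g006890 (0.88), and for AOS2 they were Solyc10g080980 (0.87), Solyc03g116860 (0.86) and Solyc08g082910 (0.86). For AOC they were Solyc03g122190 (0.89), Solyc08g036640 (0.89) and Solyc03g118970 (0.87), and for OPR3 they were Solyc08g068630 (0.90), Solyc10g076670 (0.89) and Solyc01g094410 (0.85). The listed genes among them were Solyc02g064980 for AOS1 and the first 2 each for AOC and OPR3. These r are of levels averaged over the libraries, and the genes were picked for a high r. Within single libraries r ran from 0.695 to 0.924 in replicate 1 and from 0.690 to 0.930 in replicate 2, and the lowest of each was for a gene of AOS2.

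Of 8 other identifiers on the jasmonate list, 7 were in the files, and they did not share one pattern. Solyc07g042170 had 260 and 484 CPM in replicates 1 and 2 and its highest level in cluster 21, at 1769 and 2515 CPM. Solyc12g009220, which is on the protoplasting-induced list, had 12.4 and 38.0 CPM and was also highest in cluster 21, at 103 and 258 CPM. The other 5 were highest elsewhere or not detected. Solyc08g014000 had 6.23 and 34.3 CPM overall and 362 and 452 CPM in cluster 11, Solyc10g011660 had 9.16 and 16.8 CPM and was highest in cluster 23, and Solyc08g076930 had 7.95 and 16.7 CPM and was highest in cluster 22. Solyc10g007960 had 24 and 48 UMIs in the whole libraries, and Solyc01g006540 had none.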

How the data were processed

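Single-cell RNA was measured in 2 libraries of M82 root tips, 1 group with replicates 1 and 2. The authors ran Cell Ranger 6.0.1 on the reads, with genome build SL4.0, annotation ITAG4.1 and added organelle sequences, and the deposited values are raw UMI counts for each gene in each barcode, not normalized. Identifiers are used without prefix and version. No genome of that build was used here and no coordinates or sequences are given.

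Cells with at least 500 UMIs and at most 1% organelle UMIs were kept. The enzymes, the jasmonate list and the protoplasting-induced genes were kept out of the 2000 clustering features, and genes were centred within each library (35 principal components, 20 neighbours, Leiden at resolution 1, leidenalg 0.10.2, igraph 0.11.9, Python 3.11.15, scikit-learn 1.9.0). Doublets were not removed, and the methods of the study mention no such removal. Clusters and their names were rebuilt here and need not match those of the study. The counts of each cluster were summed within each library and tested with edgeR 4.0.16 (R 4.3.3, TMM, filterByExpr, glmQLFit, glmQLFTest) as each cluster minus the unweighted mean of the others, with library as a block because each library supplies every cluster, and with Benjamini-Hochberg adjustment over all genes at a threshold of 0.05. Correlations used log2(CPM + 1). Named beside the 5 enzymes were the 3 genes with the highest correlation to each and the identifiers of the jasmonate list. Without gene descriptions, the parts of that rule and of the marker lists that rest on descriptions named nothing. The fit was tested on simulated data for the contrast of cluster 21 (14230 genes, 180 changed genes tested, dispersion 0.05). It called 94.6% of 4-fold and 45.5% of 2-fold changes, and 6.62% of its calls were unchanged genes. The simulated sums shared 1 expression profile apart from the changed genes, with no difference between libraries. The data differ in both respects, so these rates need not hold for them. The members and lists were chosen with earlier results of these data known.

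The alternatives were other clustering resolutions and features, no centring, other cell filters, DESeq2 1.42.0 and its size factors, no filter on low counts, no block, 2 sums per library, thinning and other strata, and, chosen after seeing the data, the other protoplasting-induced genes left out.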

Additional observations from a re-analysis of the deposited data

Results flagged for a closer look

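The cells of clusters that entered no test also held UMIs of all 5 enzymes, above the level that 3 counts would give. These were 460 cells of cluster 24 in replicate 1, and 2381 cells of 5 clusters in replicate 2. LoxD had 2.32 CPM in these cells of replicate 1 and 13.3 CPM in those of replicate 2. AOS1 had 0.678 and 2.87 CPM, and AOS2 had 1.31 and 2.09 CPM. AOC had 16.8 and 49.5 CPM, and OPR3 had 18.0 and 46.9 CPM. All 10 values lay below the level of the same gene in the whole library.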

How the results depend on the processing

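The number of enzymes called higher in cluster 21, 4 of 5, was the same under all 12 alternatives (at resolution 0.5 in a cluster with a Jaccard overlap of 0.334), with log2 fold changes of 3.01 to 3.52 for LoxD, 2.97 to 3.76 for AOS1, 2.82 to 3.52 for AOC and 2.35 to 3.10 for OPR3. Over all contrasts, 31 of 125 tests were called higher and 23 lower. Without the replicate block the counts were 20 and 11. Lower calls numbered 46 of 145 tests without centring, where 29 clusters were tested, and 42 of 125 with 2 sums per library. The cause was not tested. Leaving out a replicate leaves no residual degrees of freedom, so it gives values without a test. Without a replicate, the share of cells with a UMI lay between 19.2% and 22.0% for LoxD, 12.4% and 14.1% for AOS, 27.0% and 33.2% for AOC, and 29.9% and 44.2% for OPR3. The mean share after thinning to 2000 and to 1000 UMIs was 10.1% and 6.16% for LoxD, 5.65% and 3.13% for AOS, 13.4% and 8.72% for AOC, and 14.8% and 8.58% for OPR3, since thinned cells hold fewer UMIs. The log2 odds ratios in the order LoxD with AOS, LoxD with AOC, LoxD with OPR3, AOS with AOC, AOS with OPR3 and AOC with OPR3 were 2.82, 1.36, 1.77, 2.16, 2.06 and 1.82 without strata, 1.71, 0.46, 0.72, 0.80, 0.83 and 0.56 within clusters, and 2.91, 1.63, 1.78, 2.19, 1.90 and 1.63 after thinning. There were 3 values that changed direction. LoxD in cluster 29 was at -0.12 without replicate 1 (1.60 without replicate 2). OPR3 was at -0.077 in cluster 7 and -0.87 in cluster 4 when the jasmonate list could enter the features. The matched clusters then had Jaccard overlaps of only 0.573 with cluster 7 and 0.363 with cluster 4. Of the other tested values for single genes and clusters, 370 kept their call and direction, 8 gained a call and 16 lost it. Values without a replicate have no call and are not counted among these. Levels near that of 1 UMI, as for AOS2, limit what can be read from shallow clusters.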
